A study of Mus musculus with 35 samples.

Results

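Livers of mice made cachectic by the C26 tumor were set against livers of mice with the weight-stable NC26 tumor, each relative to its own PBS group, in ATAC-seq of purified hepatocyte nuclei. The quantity described is a difference of effects: C26 CX minus C26 PBS (the C26 effect), minus NC26 TUM minus NC26 PBS (the NC26 effect). It was computed in every region of the merged region table, 177904 regions of 400 bp on mm10. The comparison used 16 of the 35 libraries of the series, 4 in each group: C26 CX (C26 tumor, cachexia), C26 PBS, NC26 TUM (NC26 tumor, weight-stable cancer) and NC26 PBS. All 16 animals were BALB/c and carried CAG-Sun1/sfGFP with Albumin-Cre, a combination that puts a green fluorescent tag on the nuclear envelope of cells with Albumin-driven Cre, so that hepatocyte nuclei can be pulled down (the INTACT method). Controls carried the same alleles and received PBS instead of tumor cells. Livers of all 16 animals were taken at zeitgeber time 9, those of C26 CX once more than 10% of body weight was lost. The labels state neither age nor sex, nor what fixed the day on which NC26 livers were taken. Each library came from its own animal.

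Cachexia is a wasting syndrome in which inflammation and altered hormones shift the liver between its programs. Cytokines such as interleukin-6 act through STAT3 and C/EBP factors on acute phase genes, glucocorticoids act through their nuclear receptor on fasting and amino acid genes, and growth hormone acts through STAT5 on male-biased and female-biased genes. ATAC-seq reads where a transposase can enter chromatin, and such open regions mark promoters and enhancers without measuring transcription. The NC26 groups hold the effect of a tumor without wasting, but wasting and tumor line go together in these cohorts and cannot be told apart.

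Values are tags in a region scaled to 10 M tags per library (scaled tags). Library totals were 12.6 to 18.9 M tags in C26 CX, 13.8 to 23.4 M in C26 PBS, 3.47 to 15.7 M in NC26 TUM and 12.1 to 16.5 M in NC26 PBS. NC26 TUM replicate 1, at 3.47 M tags, was the shallowest library of the series, and 18394 of its regions held no read, against 371 to 3064 in the other 34 libraries. The share of region tags in promoters averaged 35.5% ± 0.39 in C26 CX, 34.3% ± 0.54 in C26 PBS, 34.6% ± 0.40 in NC26 TUM and 34.5% ± 0.37 in NC26 PBS (SD, n = 4 each). Its difference of effects was 1.21 percentage points (exact permutation test over 4900 arrangements, two-sided p = 0.042), and the call was lost in 11 of the 16 tests that left out 1 library. The share of tags inside regions differed by -1.08 points (exact permutation p = 0.849), with group ranges that overlapped. Of the promoters of hepatocyte markers, Alb averaged 257 scaled tags in C26 CX, 266 in C26 PBS, 302 in NC26 TUM and 296 in NC26 PBS. The Hnf4a and Apob promoters were likewise open in every group, while the Serpina1a promoter was near 0 in all 4.

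Shown here are 6 higher and 3 lower called promoters of list genes, as RefSeq gives them (GRCm38.p6, the assembly of mm10). Each runs from 250 bases before to 50 after the start. They have the largest differences of effects among windows that overlap a tested region by 200 bases or more and bear the symbol of its nearest gene. A single chromosome was left out of this choice. Promoter regions outside it, such as the start of Mt2, can have larger differences. Capitals mark matches, on either strand, to 5 motifs: STAT (TTCNNGGAA), C/EBP (TTGCNNAA), AP-1 (TGANTCA), NF-kB (GGG and TTTCC with 2 free bases between) and the glucocorticoid receptor (GNACA and TGTNC with 3 free bases between). Orm3 (chr4:63355908-63356207, plus strand) encodes an orosomucoid, Sult1e1 (chr5:87591562-87591861, minus strand) the estrogen sulfotransferase, Osmr (chr15:6874264-6874563, minus strand) the oncostatin M receptor, Serpina3n (chr12:104406458-104406757, plus strand) a secreted protease inhibitor, Lcn2 (chr2:32387690-32387989, minus strand) the iron-scavenging lipocalin 2 and Slc1a2 (chr2:102706188-102706487, plus strand) a glutamate transporter. These 6 lay in promoter regions with a higher difference of effects, and the Sult1e1 window holds no match. Hsd3b5 (chr3:98645485-98645784, minus strand), a male-biased steroid dehydrogenase, Mup3 (chr4:62087268-62087567, minus strand), a major urinary protein, and Acaa1b (chr9:119157044-119157343, minus strand), a peroxisomal thiolase, lay in promoter regions with a lower one and hold no match.
Orm3: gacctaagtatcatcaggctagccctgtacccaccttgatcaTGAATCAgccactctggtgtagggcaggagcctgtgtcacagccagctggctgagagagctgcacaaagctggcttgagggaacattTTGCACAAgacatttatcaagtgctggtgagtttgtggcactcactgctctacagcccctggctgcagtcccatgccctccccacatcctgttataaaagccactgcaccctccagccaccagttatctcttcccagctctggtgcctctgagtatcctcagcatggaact
Sult1e1: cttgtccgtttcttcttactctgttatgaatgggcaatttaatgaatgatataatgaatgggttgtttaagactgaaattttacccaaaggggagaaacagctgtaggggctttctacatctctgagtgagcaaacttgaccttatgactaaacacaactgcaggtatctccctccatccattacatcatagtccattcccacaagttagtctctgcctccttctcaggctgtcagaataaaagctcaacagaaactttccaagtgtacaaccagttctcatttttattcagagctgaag
Osmr: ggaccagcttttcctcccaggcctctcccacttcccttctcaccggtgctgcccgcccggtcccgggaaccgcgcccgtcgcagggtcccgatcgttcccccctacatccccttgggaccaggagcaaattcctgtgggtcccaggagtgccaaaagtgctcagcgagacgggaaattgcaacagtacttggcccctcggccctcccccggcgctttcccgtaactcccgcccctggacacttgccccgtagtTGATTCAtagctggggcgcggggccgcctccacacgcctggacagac
Serpina3n: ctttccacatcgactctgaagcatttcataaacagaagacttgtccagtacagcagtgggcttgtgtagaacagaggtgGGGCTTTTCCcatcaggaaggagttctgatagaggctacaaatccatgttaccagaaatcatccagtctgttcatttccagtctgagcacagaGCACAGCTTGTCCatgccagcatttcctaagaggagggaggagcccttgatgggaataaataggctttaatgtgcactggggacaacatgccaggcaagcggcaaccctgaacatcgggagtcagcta
Lcn2: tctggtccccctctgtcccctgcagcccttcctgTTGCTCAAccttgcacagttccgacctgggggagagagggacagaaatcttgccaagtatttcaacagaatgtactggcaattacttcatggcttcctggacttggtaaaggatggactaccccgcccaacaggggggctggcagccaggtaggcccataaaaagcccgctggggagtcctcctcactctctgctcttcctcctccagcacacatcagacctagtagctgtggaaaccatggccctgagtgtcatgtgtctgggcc
Slc1a2: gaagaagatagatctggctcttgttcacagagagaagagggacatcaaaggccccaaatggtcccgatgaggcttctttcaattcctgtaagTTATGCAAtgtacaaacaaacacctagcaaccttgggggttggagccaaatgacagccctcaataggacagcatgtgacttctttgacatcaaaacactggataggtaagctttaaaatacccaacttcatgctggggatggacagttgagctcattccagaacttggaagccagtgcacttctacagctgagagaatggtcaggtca
Hsd3b5: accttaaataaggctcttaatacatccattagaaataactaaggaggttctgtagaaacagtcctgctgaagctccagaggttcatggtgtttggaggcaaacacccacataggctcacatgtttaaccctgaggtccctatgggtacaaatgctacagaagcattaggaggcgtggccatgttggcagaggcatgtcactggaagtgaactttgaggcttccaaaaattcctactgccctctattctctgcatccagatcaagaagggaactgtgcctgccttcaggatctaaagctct
Mup3: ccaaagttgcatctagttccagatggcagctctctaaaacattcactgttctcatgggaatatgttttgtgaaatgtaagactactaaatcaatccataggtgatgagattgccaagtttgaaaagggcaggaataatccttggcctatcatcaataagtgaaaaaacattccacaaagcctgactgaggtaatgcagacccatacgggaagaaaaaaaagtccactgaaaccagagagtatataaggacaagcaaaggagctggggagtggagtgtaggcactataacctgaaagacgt
Acaa1b: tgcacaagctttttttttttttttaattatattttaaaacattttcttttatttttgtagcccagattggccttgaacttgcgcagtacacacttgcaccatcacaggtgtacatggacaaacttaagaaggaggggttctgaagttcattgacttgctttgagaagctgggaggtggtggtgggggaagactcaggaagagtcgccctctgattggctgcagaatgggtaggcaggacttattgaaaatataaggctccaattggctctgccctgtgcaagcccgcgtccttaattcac
Of all RefSeq promoter windows, 10634 overlapped a tested region by 200 bases or more. The C/EBP letters were found in 21 of 112 windows on regions with a higher difference (18.8%), in 2 of 23 windows on regions with a lower one (8.70%) and in 9.07% of all 10634. AP-1 letters stood in 9.82%, 13% and 5.20% of these windows, STAT letters in 6.25%, 0% and 4.69%, and NF-kB letters in 3.57%, 0% and 1.61%. The glucocorticoid receptor letters were in 4 of the 112 higher windows (3.57%), those of Atp6v0a4, Gm29924, Map3k6 and Serpina3n, in none of the 23 lower ones and in 0.376% of all. The median GC content was 58% in the higher windows, 50% in the lower and 61% in all, so windows of the sets also differ in base composition. A match to letters is a description of the window and no test was made of these shares.

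After a filter that removed 653 regions, 177251 were tested. At an adjusted p under 0.05 (limma, Benjamini-Hochberg over all tested regions), 1840 regions had a higher difference of effects (1.04% of those tested) and 1947 a lower one (1.1%), 2.14% in all. The 1840 lay nearest to 1233 genes and the 1947 to 1376, and since 37.2% of regions overlap a neighbour, they merged within 5 kb into 1480 and 1609 loci. The median difference was 1.54 among the higher and -1.59 among the lower, and it was 0.02 over all tested regions. The C26 effect by itself was called in 24890 regions (14%), 12255 higher (6.91%) and 12635 lower (7.13%). The NC26 effect was called in 330 (0.186%), 259 higher (0.146%) and 71 lower (0.0401%). Between C26 PBS and NC26 PBS, 0 regions (0%) were called by limma, 9744 had an unadjusted p under 0.05, edgeR called 0 and DESeq2 called 4 higher and 1 lower.

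The regions of the difference were those where the C26 livers moved and the NC26 livers stayed near their PBS group. In the 1840 higher regions the median C26 effect was 1.34 and the median NC26 effect -0.13, and in the 1947 lower regions these medians were -1.53 and 0.02. The C26 effect was itself called in the same direction in 1694 and 1884 of them. The NC26 effect was called in 32 and 4, in the same direction as the difference in 20 and 2 of these. It was the larger of the effects in size in 123 of the higher and 53 of the lower regions. The median of the group means was 41 scaled tags in C26 CX, 13 in C26 PBS, 15.7 in NC26 TUM and 15.7 in NC26 PBS in the higher regions, and 7.37, 24.3, 21.8 and 21.7 in the same order of groups in the lower. All 4 C26 CX libraries lay above all other 12 in 1236 of the higher regions (67.2%), and below all other 12 in 1378 of the lower (70.8%). Over all tested regions these shares were 2.99% and 2.40%, and the larger shares in the called regions come with their choice. The values of the called regions describe regions chosen by this contrast of the same 16 libraries and support nothing further. In the called regions the C26 PBS group also lay below NC26 PBS where the difference was higher (median -0.22) and above it where the difference was lower (median 0.22), differences that formed part of the contrast by which these regions were called.

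**Figure D1:**
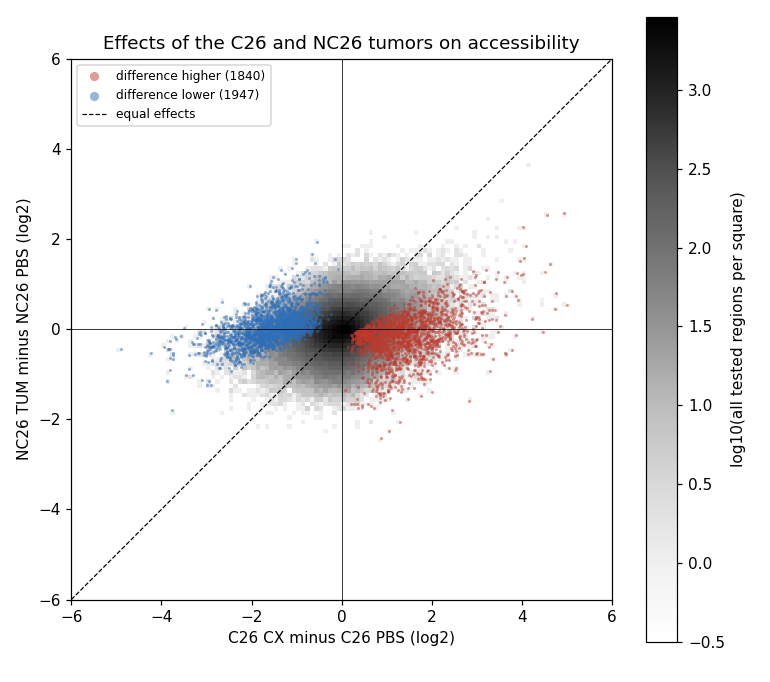
C26 effect (x axis, log2) against NC26 effect (y axis, log2) in all tested regions, with grey shading for the number of regions per bin on a log scale, red dots for the 1840 regions with a higher difference and blue dots for the 1947 with a lower one. Both sets run along the C26 axis, at NC26 medians of -0.13 and 0.02, away from the dashed line of equal effects.

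The number of calls moved with single libraries. It was 973 higher and 1184 lower without NC26 PBS replicate 1, and 1062 and 1095 without C26 CX replicate 4. Without C26 PBS replicate 4 the higher count was 1215, and the lower count was 1287 without C26 CX replicate 3 and 1268 without NC26 TUM replicate 3. Without the shallow NC26 TUM replicate 1 it was 1661 and 1425. Library numbers split into a lower and a higher series, all C26 libraries fell in the lower series, and NC26 replicates 1 and 2 fell in the lower and 3 and 4 in the higher. With the NC26 libraries of the lower series alone, 938 of the 1840 higher and 639 of the 1947 lower regions were called again, among 1835 and 810 calls in all. With those of the higher series alone, 344 and 391 were called again, among 410 and 468.

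Acute phase proteins, the plasma proteins that hepatocytes release in inflammation, held the highest share of called regions among the 26 gene lists examined. Of 535 regions nearest to the 40 genes, 53 had a higher difference (9.91% called) and none a lower one. The 53 belonged to 21 genes, and 14 of them lay within 1 kb of a start site. Serpina3n had 7 of 24 regions called, Mt2, a metal-binding metallothionein, 6 of 8, and the serum amyloids Saa1, Saa2 and Saa3 had 3 of 13, 4 of 12 and 1 of 5. Other members were called at Apcs, Cp, Fga, Fgg, Fgl1, Hp, Hpx, Ifitm3, Itih3, Lbp, Lcn2, Mt1, Orm1, Orm2, Orm3 and Slc39a14, while 19 genes, C3 and A2m among them, had no called region. The median over the 535 regions was 0.50 for the difference, 0.60 for the C26 effect and 0.12 for the NC26 effect. Leaving out 1 library gave 39 to 59 higher and no lower regions, while the higher count was 34 with the lower NC26 library series alone and 19 with the higher series alone. Reads of Saa, Orm and Serpina3 genes may be shared among near-identical copies, so which copy opened is uncertain.

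A region 8.47 kb into the Serpina3n locus (chr12:104414976-104415376, at the transcript end) held 193, 105, 138 and 107 scaled tags in the C26 CX libraries, against 12.2, 15.2, 8.52 and 10.5 in the C26 PBS libraries. At Serpina3n the NC26 TUM libraries held 13.5, 16.1, 12.8 and 14.5, against 13.8, 15.1, 10.1 and 10.4 in NC26 PBS. All C26 CX values lay above the other 12, and the NC26 groups overlapped. The C26 effect was 3.42 and the NC26 effect 0.21, and the difference was 3.22 ± 0.44 (SE, log2; adjusted p = 3.11e-05). The Orm3 promoter region (chr4:63355841-63356241), which covers the window printed above, held 101, 127, 107 and 123 scaled tags in the C26 CX libraries, against 6.73, 8.16, 8.84 and 6.13 in the C26 PBS libraries. In NC26 TUM the Orm3 region held 18.9, 10.2, 14.3 and 10.5, against 8, 5.27, 10.5 and 4.61 in NC26 PBS. C26 CX again stood apart from all others, and the NC26 groups overlapped, since replicate 3 of NC26 PBS was as high as the lowest NC26 TUM values. Its difference was 2.92 ± 0.43 (SE, log2; adjusted p = 0.000141). At Orm2, 0.742 kb upstream of the start, C26 CX ranged over 28.1 to 34.4, C26 PBS over 1.75 to 7.25, NC26 TUM over 5.53 to 9.64 and NC26 PBS over 6.05 to 15.5, and the difference was 2.94 ± 0.48 (SE, log2; adjusted p = 0.000391). The Serpina3n and Lcn2 promoter regions had differences of 1.59 (adjusted p = 0.00381) and 1.55 (adjusted p = 0.0043). A Saa1 region 3.75 kb from the start had a large but less steady difference: 3.08 ± 0.79 (SE, log2; adjusted p = 0.0357), which was called in 3 of the 16 fits that left out 1 library, those without C26 PBS replicate 1, NC26 TUM replicate 2 and NC26 PBS replicate 2.

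Interleukin-6 family cytokines signal through shared receptor chains and STAT3, and SOCS proteins feed back on them. Of 528 regions of the interleukin-6 and STAT3 list, 20 were higher and 0 lower, in 9 of 24 genes: Bcl3, Cebpd, Fos, Il1r1, Il6ra, Lepr, Osmr, Socs2 and Socs3. The other 15 genes, Il6st, Lifr, Jak1, Stat3 and Socs1 among them, had no called region. Il1r1, a receptor of interleukin-1 and not of this family, contributed 7 of its 65 regions and Il6ra, the ligand-binding chain of the interleukin-6 receptor, 3 of 34. The count was 13 without C26 CX replicate 3, 10 without C26 PBS replicate 3, 11 without NC26 PBS replicate 2, 10 with the lower NC26 series alone and 6 with the higher. The region over the Osmr start (chr15:6874116-6874516) held 44.3, 41.7, 64.9 and 57.8 scaled tags in the C26 CX libraries, against 9.58, 7.87, 4.42 and 7.01 in the C26 PBS libraries. For Osmr the NC26 TUM libraries gave 8.09, 11.8, 15.7 and 13.6, against 8, 10.9, 6.4 and 5.19 in NC26 PBS. The C26 CX values exceeded all others, the NC26 groups overlapped, and the difference was 2.08 ± 0.41 (SE, log2; adjusted p = 0.00305). Socs2, a cytokine-inducible inhibitor of growth hormone signalling, opened in both cohorts. Its region 6.59 kb from the start (chr10:95408489-95408889) held 78.6, 56.6, 86.8 and 73.2 scaled tags in the C26 CX libraries, against 18.1, 21, 14.5 and 9.2 in the C26 PBS libraries, and in NC26 TUM 48.6, 37.5, 49.5 and 61.3, against 25.8, 33.1, 22 and 25.9 in NC26 PBS. Both tumor groups lay above their own controls, and the lowest C26 CX library lay below the highest NC26 TUM library. The C26 effect was 2.20 (adjusted p = 3.49e-12), the NC26 effect 0.85 (adjusted p = 0.0212), and the difference 1.35 ± 0.25 (SE, log2; adjusted p = 0.00184).

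Of the NF-kB list, 10 of 364 regions were higher and 0 lower, 7 of them those of Il1r1 and the others at Cxcl1, Nfkbiz and Tnfaip3. The Nfkbiz and Tnfaip3 promoters, of a nuclear IkB protein and of the A20 inhibitor, had differences of 1.66 ± 0.45 (SE, log2; adjusted p = 0.0348) and 0.59 ± 0.16 (SE, log2; adjusted p = 0.0417), calls that were lost in 9 and 11 of the 16 fits without 1 library. The Il1r1 region 62 kb upstream had the larger difference, 2.41 ± 0.52 (SE, log2; adjusted p = 0.00677), with C26 CX at 15.4 to 26.8 scaled tags, C26 PBS at 2.33 to 9.84, NC26 TUM at 1.7 to 6.43 and NC26 PBS at 2.67 to 6.05. Of the AP-1 and immediate early list, 8 of 317 regions were higher, at Btg2, Egr3, Fos, Gadd45b, Gadd45g and Ier2, and 2 were lower, both at Fosl2. Ier2 had the lowest adjusted p of these, with a difference of 0.54 ± 0.13 (SE, log2; adjusted p = 0.0139). The NF-kB count was between 4 and 10 and the AP-1 count between 1 and 8 when 1 library was left out, and the AP-1 count was 1 without C26 CX replicate 4 and without NC26 PBS replicate 2. The share called was 2.75% on the NF-kB list and 3.15% on the AP-1 list, beside 2.14% of all tested regions. Interferon and antigen presentation genes had 2.36% called, 2 higher and 4 lower of 254 regions. Cd274, the checkpoint ligand PD-L1, was higher (1.27), while Psmb9 (-1.57), an immunoproteasome subunit, and Gbp5 (-1.89), an interferon-inducible GTPase, were lower.

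**Figure D2:**
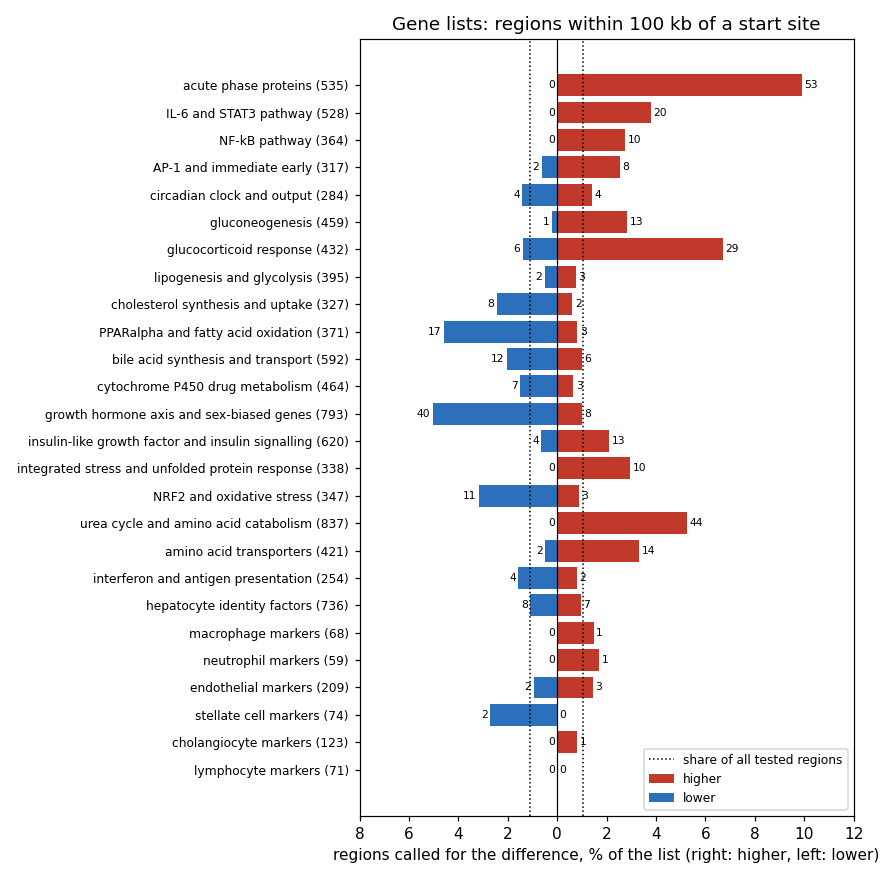
Share of the regions of each gene list (number of regions in parentheses) with a higher difference (red, to the right) and a lower difference (blue, to the left), in percent, with the number of regions at each bar. Dotted lines mark the shares over all tested regions, 1.04% higher and 1.1% lower, and the acute phase bar reaches furthest right with 53 regions while the growth hormone bar reaches left with 40.

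Targets of the glucocorticoid receptor had 29 higher and 6 lower of 432 regions, in 20 genes. Fkbp5, a chaperone that feeds back on the receptor, had 7 of 37 regions higher, Ddit4, a stress-induced inhibitor of mTORC1, 5 of 22, and Mt2 6 of 8. Errfi1, Gadd45b, Igfbp1, Lcn2, Mt1, Sgk1 and Sult1e1 were also higher, Klf9 had 1 higher and 3 lower, and the lower regions besides lay at Nr3c1, the receptor gene itself, and Serpina6, which encodes the plasma carrier of corticosteroids. Mt1, Mt2 and Lcn2 are also on the acute phase list. The higher count was 19 without C26 CX replicate 4, 18 without NC26 PBS replicate 1, 49 without NC26 TUM replicate 2, 19 with the lower NC26 series alone and 7 with the higher, and the lower count was 3 without C26 CX replicate 3 and 0 with the higher series alone. The median over the list was 0.37 for the difference, 0.24 for the C26 effect and -0.08 for the NC26 effect. Of the 432 regions, 3 passed for the NC26 effect, which was called in 0.186% of all tested regions.

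A Fkbp5 region 12.3 kb upstream of the start (chr17:28498273-28498673) held 13.3, 25.9, 15.3 and 42.4 scaled tags in the C26 CX libraries, against 2.59, 3.5, 2.52 and 0.876 in the C26 PBS libraries. For Fkbp5 the NC26 TUM libraries held 0, 0, 1.75 and 0.567, against 3.56, 4.14, 4.57 and 1.73 in NC26 PBS. C26 CX lay above all other libraries, and NC26 TUM lay mostly below NC26 PBS, with its libraries at or within a few reads of 0. The difference, 4.42 ± 0.70 (SE, log2; adjusted p = 0.000305), was the sum of a C26 effect of 2.83 (adjusted p = 6.69e-05) and an NC26 effect of -1.59 that did not pass (adjusted p = 0.202), and at such low tags it depends on the pseudocount of 1. The Ddit4 region 7.9 kb from the start (chr10:59943671-59944071) held 99, 146, 149.9 and 202 scaled tags in the C26 CX libraries, against 43, 42, 52.7 and 48.2 in the C26 PBS libraries. At Ddit4 the NC26 TUM libraries had 27, 49.8, 49.2 and 54.7, against 37.3, 52.3, 43.9 and 44.1 in NC26 PBS. C26 CX stood apart, the other 12 libraries overlapped, and the difference was 1.64 ± 0.30 (SE, log2; adjusted p = 0.00198). The promoter of Igfbp1, which encodes a liver-secreted IGF-binding protein induced in fasting, held 227, 166, 199.9 and 247 scaled tags in the C26 CX libraries, against 85.2, 73.4, 106 and 88.1 in the C26 PBS libraries, and in NC26 TUM 165, 101, 138 and 117, against 105, 80.1, 124 and 116 in NC26 PBS. C26 CX was higher than every other library, though by little over the highest NC26 TUM library. The difference was 0.96 ± 0.24 (SE, log2; adjusted p = 0.0245), a call lost without C26 CX replicate 4, C26 PBS replicate 2, NC26 TUM replicate 2, NC26 PBS replicate 1 or NC26 PBS replicate 3. The Igfbp1 call was also lost with scaling to library totals, with the promoter share as a covariate and with the lower NC26 series alone.

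Amino acid catabolism genes were also called on the higher side only. Of 837 regions of the urea cycle and amino acid list, 44 were higher and 0 lower, in 12 of 39 genes. Bhmt, which remethylates homocysteine with betaine, had 17 of 34 regions called, the most of any gene in the comparison. Got1, the cytosolic aspartate aminotransferase, had 8 of 26, Mat1a, which makes S-adenosylmethionine in liver, 7 of 16, Kynu, of the tryptophan pathway, 3 of 31, and Agxt 2 of 11. Cdo1, Cps1, Cth, Gldc, Hal, Slc25a15 and Tdo2 had 1 each. The median over the list was 0.29 for the difference, 0.15 for the C26 effect and -0.17 for the NC26 effect, so the medians of the effects had opposite signs. However, no region of the list passed for the NC26 effect, which was called in 0.186% of all tested regions. The count was 26 without C26 CX replicate 4, 22 without C26 PBS replicate 4, 25 without NC26 TUM replicate 3, 22 without NC26 PBS replicate 1, 27 without NC26 PBS replicate 3, 18 with the lower NC26 series alone and 14 with the higher, and 0 to 2 regions were lower when 1 library was left out.

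The Mat1a promoter (chr14:41104760-41105160) held 275, 279, 315 and 318 scaled tags in the C26 CX libraries, against 155, 185, 155 and 161 in the C26 PBS libraries. For Mat1a the NC26 TUM libraries gave 224, 207, 204 and 179.6, against 244, 179, 204 and 210.02 in NC26 PBS. The C26 CX values lay above all others, the NC26 groups overlapped, and the difference was 0.89 ± 0.14 (SE, log2; adjusted p = 0.000141). A Cth region 1.09 kb upstream of the start of cystathionine gamma-lyase (chr3:157925956-157926356) held 27.9, 23.9, 38.9 and 29.6 scaled tags in the C26 CX libraries, against 15.5, 12.8, 17 and 18 in the C26 PBS libraries, and in NC26 TUM 16.2, 15.5, 15.4 and 17, against 16.9, 21.1, 26.5 and 21 in NC26 PBS. C26 CX lay above C26 PBS, NC26 TUM lay mostly below NC26 PBS, and the difference was 1.25 ± 0.23 (SE, log2; adjusted p = 0.00149). In Got1, a region 10.5 kb into an intron had C26 CX at 134 to 157, C26 PBS at 70.1 to 102, NC26 TUM at 92.8 to 132 and NC26 PBS at 101 to 131, with a difference of 0.79 ± 0.16 (SE, log2; adjusted p = 0.00317). Amino acid transporters had 14 higher and 2 lower of 421 regions. Slc7a2, a transporter of cationic amino acids, had 4, Slc1a2, a glutamate transporter, 3, and Slc38a2 and Slc6a6 had 2 each, with Slc38a4 at a difference of 1.17 ± 0.24 (SE, log2; adjusted p = 0.00494). The higher count was 9 without C26 CX replicate 4 and 8 without NC26 PBS replicate 1.

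Gluconeogenesis genes had 13 higher and 1 lower of 459 regions, 8 of the 13 at Got1, which the list shares with amino acid catabolism. Pck1, the enzyme that commits oxaloacetate to glucose, Irs2 and Sik1 had 1 each and the coactivator Ppargc1a 2, while Creb3l3, a liver-enriched membrane-bound factor, was lower at 1. Sik1, a kinase induced by cAMP, had a region 14.8 kb upstream at 73.6 to 94.8 scaled tags in C26 CX, 32.4 to 38.5 in C26 PBS, 24.6 to 53.9 in NC26 TUM and 35.1 to 54 in NC26 PBS, and its difference was 1.53 ± 0.30 (SE, log2; adjusted p = 0.00281). The higher count was 5 without C26 CX replicate 4 and 7 without C26 PBS replicate 4. The integrated stress and unfolded protein list had 10 higher and 0 lower of 338 regions, 5 of them at Ddit4 and 1 each at Atf4, Chac1, Dnajc3, Herpud1 and Sesn2. Its higher count was 6 without C26 PBS replicate 4, 5 without NC26 PBS replicate 1, 8 with the lower NC26 series alone and 0 with the higher. Insulin-like growth factor and insulin signalling genes were called on both sides, 13 higher and 4 lower of 620 regions (2.74%, beside 2.14% of all tested regions). Trib1, a pseudokinase tied to plasma lipids, had 4 of the higher regions, and Igf1 had 1, 1.62 kb upstream, with a difference of 1.56 ± 0.36 (SE, log2; adjusted p = 0.0115). That higher count was 5 to 8 without C26 CX replicate 4, C26 PBS replicates 2 or 4, or NC26 PBS replicates 1 or 3.

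The growth hormone axis and sex-biased list carried the most lower regions, 40 of 793, with 8 higher. Leaving out 1 library gave 31 to 44 lower, and the lower NC26 series alone gave 22 and the higher 11. The higher count was 13 without C26 CX replicate 2 or NC26 TUM replicate 3, and 3 to 5 without C26 CX replicate 3 or 4, C26 PBS replicate 2 or 3, NC26 TUM replicate 1 or NC26 PBS replicate 1. Car3, a carbonic anhydrase abundant in male liver, had 10 of 27 regions lower, Mup3 7 of 20, Mup7 4 of 9, Cyp2d9, a male-biased cytochrome, 4 of 20, and Hsd3b5 3 of 23. Ghr, the growth hormone receptor, had 2 of 55. Mup15, Mup20, Mup21, Hsd3b2 and Hsd3b3 had 1 or 2 each. Higher regions lay at Socs2 (2 of 8), Cux2 (2 of 27), Bcl6 and Igf1, and Trim24 had 2 on either side. Cux2 and Bcl6 encode repressors that act in the sex-biased growth hormone response of mouse liver. The median over the 793 regions was -0.08 for the difference, -0.10 for the C26 effect and -0.05 for the NC26 effect, beside 0.02, -0.01 and -0.03 over all tested regions. Reads of the Mup, Hsd3b and Cyp2d clusters may be shared among near-identical copies.

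The Hsd3b5 promoter region (chr3:98645413-98645813) held 1.06, 8.49, 2.78 and 2.93 scaled tags in the C26 CX libraries, against 26.2, 39.6, 36.6 and 45.6 in the C26 PBS libraries. At Hsd3b5 the NC26 TUM libraries held 29.7, 36.4, 40.2 and 25, against 46.2, 33.5, 32.9 and 28.2 in NC26 PBS. All C26 CX libraries lay below every other library and the NC26 groups overlapped, and the difference was -3.08 ± 0.60 (SE, log2; adjusted p = 0.00578). A Mup3 region 4.63 kb from the start, at the transcript end (chr4:62082489-62082889), held 1.33, 3.24, 1.74 and 1.1 scaled tags in the C26 CX libraries, against 38.9, 42.2, 51.8 and 18.4 in the C26 PBS libraries, and in NC26 TUM 29.7, 22, 25.9 and 13, against 40.02, 38.4, 28.8 and 33.4 in NC26 PBS. C26 CX was lowest throughout. NC26 TUM also lay low, overlapping NC26 PBS in 1 library, and its effect of -0.66 did not pass (adjusted p = 0.37). The Mup3 difference was -3.07 ± 0.38 (SE, log2; adjusted p = 4.74e-06), and at the promoter window printed above it was -2.74 (adjusted p = 5.29e-06). At the transcript end of Car3, 9.72 kb from its start (chr3:14873061-14873461), the values were 5.84, 0, 3.47 and 1.46 scaled tags in the C26 CX libraries, against 51.3, 120.04, 167 and 56.1 in the C26 PBS libraries, and in NC26 TUM 52.6, 87.8, 66.9 and 148, against 105, 79.4, 179 and 109 in NC26 PBS. This was the lowest difference of the named regions, -4.45 ± 0.85 (SE, log2; adjusted p = 0.00538), with 1 C26 CX library at 0. Trim24 encodes a nuclear receptor cofactor, and a region 88.6 kb upstream of it had C26 CX at 14.6 to 31.6, C26 PBS at 80.7 to 86.8, NC26 TUM at 74.8 to 95.8 and NC26 PBS at 82.3 to 111, with a difference of -1.73 ± 0.21 (SE, log2; adjusted p = 4.11e-06).

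**Figure D3:**
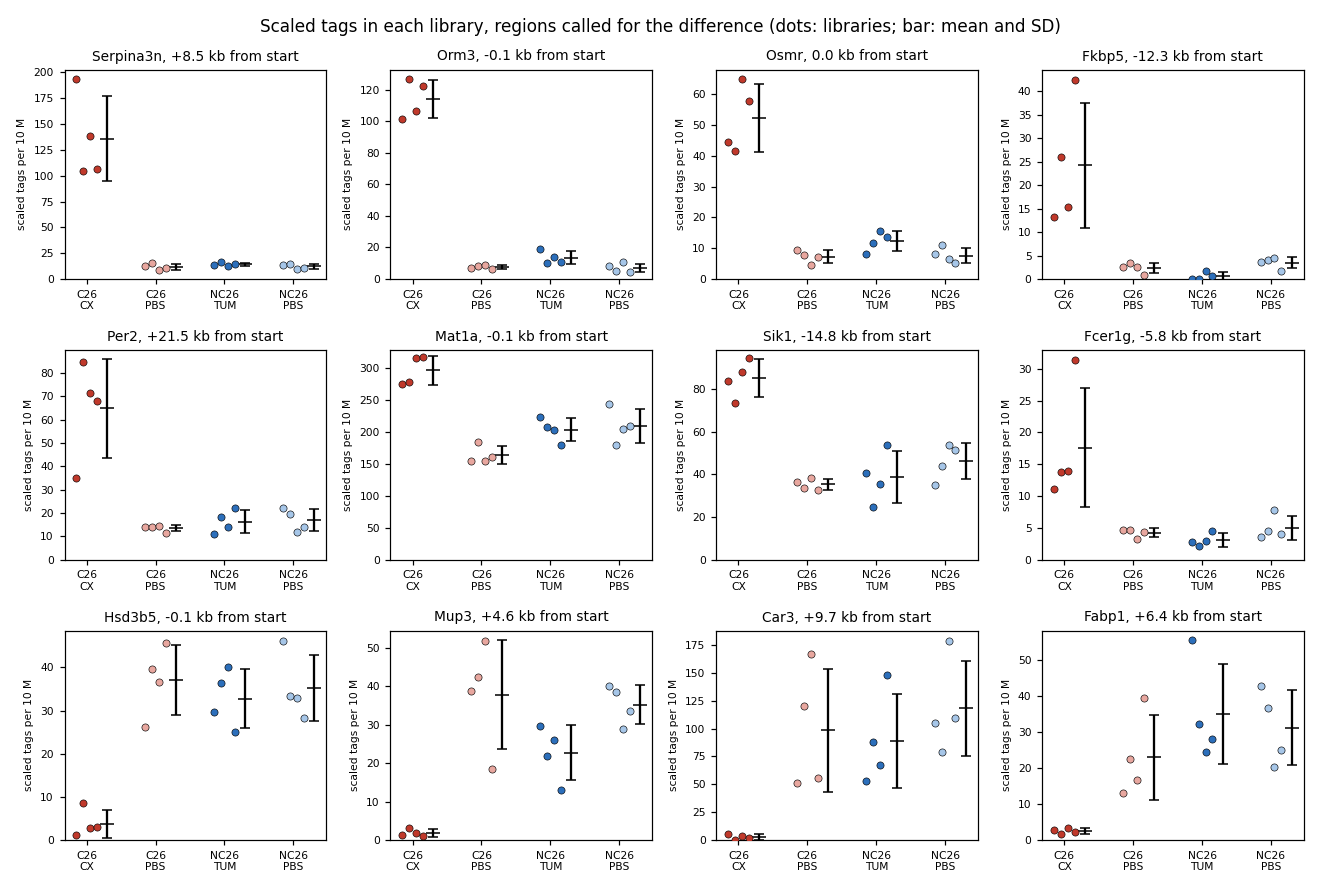
Scaled tags per 10 M (y axis, from 0) in the 4 libraries of C26 CX, C26 PBS, NC26 TUM and NC26 PBS for 12 regions with a called difference, each dot 1 library and each bar the mean and SD. In the Serpina3n, Orm3, Osmr, Fkbp5, Per2, Mat1a, Sik1 and Fcer1g panels the C26 CX dots lie above all others, and for Hsd3b5, Mup3, Car3 and Fabp1 they lie lower than all others.

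Genes of fatty acid oxidation that respond to PPARalpha, the nuclear receptor of fasting lipid use, had 17 lower and 3 higher of 371 regions. Fabp1, the liver fatty acid-binding protein, had 5 of 23 regions lower, Acaa1b 3 of 14, and Cyp4a12a, a fatty acid hydroxylase, 2 of 14. Plin2, Ppara, Cd36, Acadm, Bdh1, Cidec and Hadha had 1 lower region each, and Slc27a2 had 2 higher ones. The lower count depended on single libraries: it was 6 to 11 in 11 of the 16 fits without 1 library, and lowest without C26 PBS replicate 4 or NC26 PBS replicate 1. The fits that left it within 1.5 times of 17 were those without C26 CX replicate 1, C26 PBS replicate 1, NC26 TUM replicate 2 or 4, or NC26 PBS replicate 4. It was 6 with the lower NC26 series alone and 2 with the higher. The Fabp1 region 6.35 kb from the start (chr6:71206033-71206433) held 2.65, 1.62, 3.47 and 2.2 scaled tags in the C26 CX libraries, against 12.9, 22.4, 16.7 and 39.4 in the C26 PBS libraries. For Fabp1 the NC26 TUM libraries held 55.3, 32.1, 24.4 and 28.1, against 42.7, 36.5, 20.1 and 25.1 in NC26 PBS. C26 CX was below all other libraries, the rest overlapped, and the difference was -2.84 ± 0.51 (SE, log2; adjusted p = 0.00166). The Acaa1b promoter held 37.1 to 60.3 scaled tags in C26 CX, 110.4 to 133 in C26 PBS, 81.9 to 131 in NC26 TUM and 107 to 137 in NC26 PBS, and had a difference of -1.10 ± 0.22 (SE, log2; adjusted p = 0.00466).

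Bile acid genes had 12 lower and 6 higher of 592 regions. The lower ones lay mainly at the organic anion transporters, Slco1a1 with 4 of 24, Slco1a4 with 4 of 28 and Slco1b2 with 2 of 61. Higher regions lay at Slco1a4 as well (2), at Akr1d1 (2), a steroid reductase of bile acid synthesis, and at Cyp8b1 (1), which makes cholic acid. The higher count was 2 to 10 when 1 library was left out. An intronic Slco1a1 region (chr6:141944056-141944456) held 4.25, 2.43, 2.78 and 4.39 scaled tags in the C26 CX libraries, against 26.4, 18.1, 18.3 and 29.8 in the C26 PBS libraries, and in NC26 TUM 32.4, 22.5, 27.9 and 13, against 20.5, 19.6, 23.8 and 21.9 in NC26 PBS. The 4 C26 CX libraries lay below the rest, and the difference was -2.52 ± 0.39 (SE, log2; adjusted p = 0.000162). Cholesterol genes had 8 lower and 2 higher of 327 regions, including 3 lower ones at Cyp51, which demethylates lanosterol, and 1 each at Insig1, Stard4 and Sc5d, and the lower count was 4 without NC26 TUM replicate 1 and 5 without C26 CX replicate 3. Cytochrome P450 drug metabolism genes had 7 lower and 3 higher of 464, the 4 Cyp2d9 regions included, and 4 lower without C26 CX replicate 4. The 2.16% called on the cytochrome list was near the 2.14% called over all tested regions. Lipogenesis and glycolysis genes were near the background at 3 higher and 2 lower of 395. The higher counts of the fatty acid oxidation, cholesterol and cytochrome lists were 0 to 6 without 1 library.

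Glutathione and NRF2 genes had 11 lower and 3 higher of 347 regions. Gstp1, a glutathione transferase, had 5 of its 8 regions lower, and Gsta1 and Gclc, the catalytic subunit of glutathione synthesis, had 2 each. The lower count was 6 or 7 without C26 CX replicate 3 or 4, C26 PBS replicate 1, NC26 TUM replicate 1 or NC26 PBS replicate 3. The Gstp1 region 3.89 kb from the start (chr19:4033818-4034218) held 7.96, 19.8, 7.98 and 7.32 scaled tags in the C26 CX libraries, against 59.6, 51.9, 50.8 and 30.2 in the C26 PBS libraries. At Gstp1 the NC26 TUM libraries held 48.6, 35.9, 23.3 and 50.5, against 32.9, 32, 38.4 and 44.1 in NC26 PBS. The C26 CX libraries were lower than the others, replicate 2 less so, and the difference was -2.18 ± 0.40 (SE, log2; adjusted p = 0.00174). Gstm1 went the other way, with a difference of 1.54 ± 0.32 (SE, log2; adjusted p = 0.00527) in which the C26 effect was 0.67 (adjusted p = 0.0409) and the NC26 effect -0.88 (adjusted p = 0.0988).

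Among factors that define the hepatocyte, 7 of 736 regions were higher and 8 lower, near the shares over all tested regions. Of these, the higher count was 13 without NC26 TUM replicate 2, 2 without NC26 TUM replicate 3, and 3 or 4 without C26 CX replicate 4, C26 PBS replicate 3 or 4, or NC26 PBS replicate 1 or 3. Cebpa, the C/EBP factor of the differentiated hepatocyte, had 5 of 27 regions lower. Its region 3.58 kb from the start, at the transcript end (chr7:35122669-35123069), held 48.8, 39.6, 36.4 and 30 scaled tags in the C26 CX libraries, against 88.6, 116, 128 and 134 in the C26 PBS libraries. At Cebpa the NC26 TUM libraries held 140.3, 155, 73.9 and 98.2, against 103, 128, 83.2 and 112 in NC26 PBS. C26 CX lay below the other 12, which overlapped, and the difference was -1.66 ± 0.27 (SE, log2; adjusted p = 0.000789). Fetub, a secreted fetuin, had 3 higher regions. Clock genes were called in 8 of 284 regions (2.82%, beside 2.14% of all tested regions), 4 on either side. Per2, a repressor of the clock that is also induced by glucocorticoids, had an intronic region (chr1:91437591-91437991) at 35, 84.9, 71.5 and 68.1 scaled tags in the C26 CX libraries, against 14, 14, 14.5 and 11.4 in the C26 PBS libraries, and in NC26 TUM at 10.8, 18.2, 14 and 22.1, against 22.2, 19.6, 11.9 and 14.1 in NC26 PBS. C26 CX was above all others, with replicate 1 the lowest of the 4, and the difference was 2.18 ± 0.36 (SE, log2; adjusted p = 0.000359). Cry2 and Nfil3 were higher, Bhlhe41, Tef and Usp2 lower, and Nr1d1 had 1 region of each kind. Single libraries moved the higher count to between 1 and 10 and the lower to between 2 and 8.

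Promoters of 5 genes were named by a rule that did not use the size of their difference, though with earlier results of these data known. Beside Igfbp1, the promoter of Lbp, which binds bacterial lipopolysaccharide in plasma, held 277, 267, 262 and 271 scaled tags in the C26 CX libraries, against 141, 126, 118 and 132 in the C26 PBS libraries, and in NC26 TUM 138, 165, 179 and 174, against 124, 109.9, 161 and 133 in NC26 PBS. C26 CX was far above the rest, the NC26 groups overlapped, and the difference was 0.74 ± 0.18 (SE, log2; adjusted p = 0.0209), a call lost without NC26 PBS replicate 1 or 3. The Lbp call was also lost with scaling to library totals, with the promoter share as a covariate and with either NC26 series alone. The promoter of Itih3, which encodes a hyaluronan-binding plasma protein, held 175, 183, 176 and 167 scaled tags in the C26 CX libraries, against 77.4, 55.9, 78.6 and 99 in the C26 PBS libraries, and in NC26 TUM 123, 92.6, 100.4 and 102, against 72.9, 62.1, 64.9 and 59.9 in NC26 PBS. Here both tumor groups lay above their controls, C26 CX highest. The C26 effect was 1.19 (adjusted p = 6.89e-07), the NC26 effect 0.67 (adjusted p = 0.0559) and the difference 0.52 ± 0.22 (SE, log2; adjusted p = 0.239), with a 95% interval of 0.07 to 0.97. At the promoters of the clock repressors Nr1d1 and Nr1d2 the differences were 0.13 (95% interval -0.15 to 0.40, adjusted p = 0.724) and 0.17 (-0.02 to 0.36, adjusted p = 0.41), on means of 167 and 393 scaled tags in C26 CX.

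Outside the lists, the largest differences among regions of at least median signal lay at genes of many kinds. Kank1, a regulator of the actin cytoskeleton, had a region 14.5 kb upstream (chr19:25222286-25222686) with 96.9, 128, 112 and 131 scaled tags in the C26 CX libraries, against 7.51, 8.16, 8.84 and 9.64 in the C26 PBS libraries. In NC26 TUM the Kank1 region had 10.8, 8.57, 11.6 and 16.5, against 11.6, 8.65, 11 and 6.34 in NC26 PBS. No C26 CX value came near the other 12, and the difference was 3.32 ± 0.37 (SE, log2; adjusted p = 7.64e-07). Hif3a, a hypoxia-inducible factor subunit, had a region 1.65 kb from the start (chr7:17058132-17058532) at 39.8, 91, 69.1 and 150.4 scaled tags in the C26 CX libraries, against 14, 5.24, 3.79 and 7.89 in the C26 PBS libraries, and in NC26 TUM at 2.7, 17.1, 5.24 and 5.67, against 16.9, 9.78, 2.74 and 8.93 in NC26 PBS. C26 CX lay above all others but spread widely, and the difference was 3.66 ± 0.82 (SE, log2; adjusted p = 0.0168). On the lower side a region 4.57 kb from Olfr173 (chr16:58793177-58793577), an olfactory receptor gene whose start is the nearest, held 2.39, 4.04, 1.39 and 0.732 scaled tags in the C26 CX libraries, against 41.7, 41.4, 42 and 34.2 in the C26 PBS libraries, and in NC26 TUM 28.3, 21.4, 38.4 and 25.8, against 39.1, 26.3, 32.9 and 37.2 in NC26 PBS. It had the lowest adjusted p of the named regions, with a difference of -3.55 ± 0.36 (SE, log2; adjusted p = 3.46e-08). Rasgrp3 (-3.46), Nolc1 (-3.42), Cntnap5b (-3.39), Tmem45a (-3.17) and Naaladl2 (-2.98) lay nearest to the other lower regions whose call held in every fit. Genes off the lists with many called regions were B3galt1 (11 of 44 higher), a galactosyltransferase, Acnat2 (10 of 20 higher), an acyltransferase, Sult2a8 (8 of 26 lower), a sulfotransferase, and Ces3a (6 of 18 lower), a carboxylesterase.

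Most regions called for both tumors were not called for the difference, which was called in 2.14% of all tested regions. Of 12255 regions higher and 12635 lower in C26 CX, the NC26 effect had the same sign in 72.7% and 74%, against 45.9% and 54% of all tested regions with that sign, and its medians there were 0.17 and -0.17. Both effects were called higher in 229 regions and lower in 20, and 0 were called in opposite directions. These made up 1.87% and 0.158% of the C26 lists and 88.4% and 28.2% of the NC26 lists. The difference was called in 20 of the 229 and 2 of the 20, and not called in 209 and 18. Across the 229 the median was 1.48 for the C26 effect and 1.17 for the NC26 effect, larger in C26 in 172. Across the 20 the medians were -1.32 and -1.23, larger in size in C26 in 11. The NC26 list depended on its libraries: it held 73 to 584 higher and 7 to 600 lower regions when 1 of the 8 NC26 libraries was left out, lowest without NC26 TUM replicate 1 and highest without NC26 TUM replicate 2.

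The clearest of these was the start of Mt2 (chr8:94172469-94172869), which held 278, 284, 256 and 262 scaled tags in the C26 CX libraries, against 14.2, 8.74, 6.94 and 4.38 in the C26 PBS libraries, and in NC26 TUM 99.8, 35.9, 74.2 and 24.1, against 7.11, 7.9, 6.4 and 9.22 in NC26 PBS. NC26 TUM lay above both PBS groups and below C26 CX, with replicates 1 and 3 higher than 2 and 4. The C26 effect was 4.92, the NC26 effect 2.58 (adjusted p = 0.00206), and the difference 2.34 ± 0.55 (SE, log2; adjusted p = 0.0218). A region nearest Afdn, an adherens junction protein (chr17:13716386-13716786), held 202, 146, 193 and 164 scaled tags in the C26 CX libraries, against 7.77, 7.58, 8.21 and 19.3 in the C26 PBS libraries, and in NC26 TUM 67.5, 27.8, 38.7 and 50.5, against 9.78, 6.4, 9.6 and 8.07 in NC26 PBS. The order of groups was the same and the difference 1.75 ± 0.44 (SE, log2; adjusted p = 0.0297). At a region nearest Ctnna3, a catenin (chr10:63413546-63413946), the values were 44.1, 42.9, 51.7 and 47.6 scaled tags in the C26 CX libraries, against 1.81, 3.5, 4.1 and 3.5 in the C26 PBS libraries, and in NC26 TUM 32.4, 16.1, 37.2 and 16.2, against 1.78, 2.63, 5.95 and 1.15 in NC26 PBS. Both tumor groups stood apart from their controls, and the difference, 0.70 with a 95% interval of -0.37 to 1.77, did not pass (adjusted p = 0.573). Among shared lower regions, that nearest Eid2 (chr7:28243922-28244322) held 0.531, 0.809, 2.08 and 0.732 scaled tags in the C26 CX libraries, against 31.1, 24.2, 27.1 and 21 in the C26 PBS libraries, and in NC26 TUM 6.75, 3.21, 13.4 and 10.5, against 27.6, 22.6, 26.1 and 42.9 in NC26 PBS. The groups fell in the order C26 CX, NC26 TUM and the PBS groups together, and the difference was -1.96 ± 0.46 (SE, log2; adjusted p = 0.0131). Near Tsku and Map9 the effects were alike in size, with differences of 0.00 (95% interval -0.75 to 0.75) and 0.13 (-0.73 to 0.99), but in the NC26 effect these were called in 5 and 2 of the 8 fits without 1 NC26 library.

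**Figure D4:**
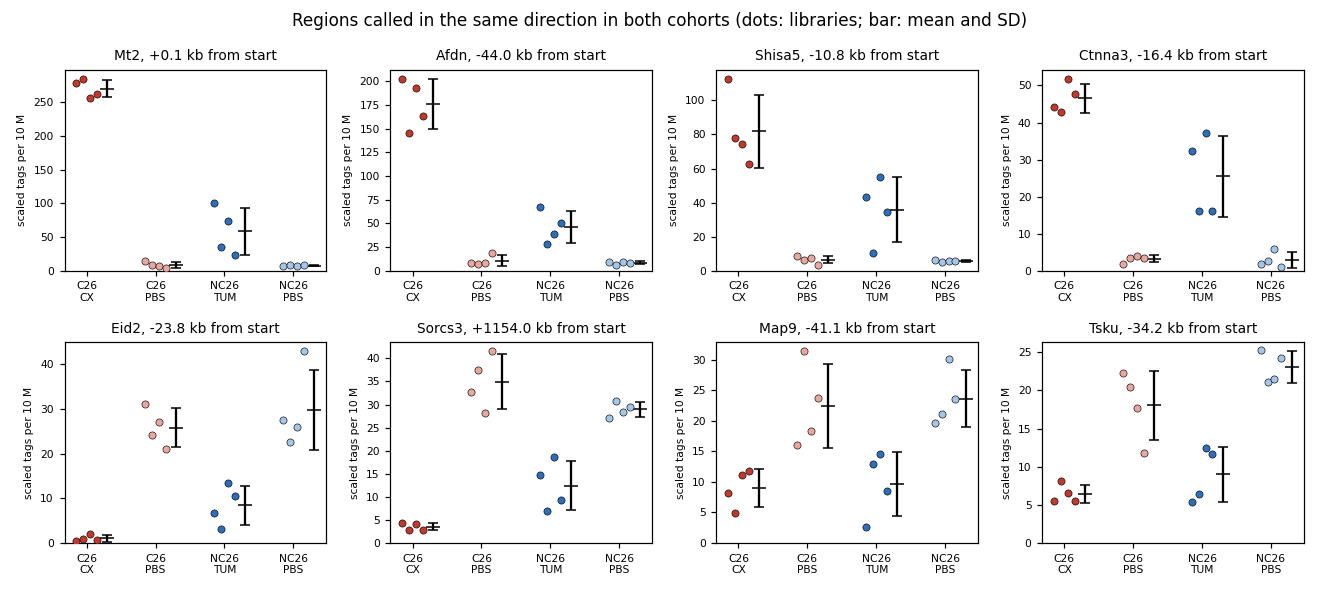
Scaled tags per 10 M (y axis, from 0) in the libraries of C26 CX, C26 PBS, NC26 TUM and NC26 PBS for 8 regions called in the same direction in both cohorts, each dot 1 library and each bar the mean and SD. At Mt2 the NC26 TUM dots lie between the C26 CX dots and both PBS groups, and at Tsku the C26 CX and NC26 TUM dots overlap.

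A few called differences came from the NC26 libraries. In 14 regions the NC26 effect was called opposite to the difference, 12 of them with a higher difference. A region 6.27 kb upstream of Slc35a3, a Golgi nucleotide sugar transporter (chr3:116718346-116718746), held 1.33, 3.24, 2.08 and 8.05 scaled tags in the C26 CX libraries, against 1.29, 0.583, 1.26 and 0.876 in the C26 PBS libraries, and in NC26 TUM 0, 2.14, 0.291 and 0.567, against 8, 3.39, 12.3 and 5.19 in NC26 PBS. All NC26 PBS values lay above all those of NC26 TUM and of C26 PBS. The NC26 effect was -2.25 (adjusted p = 0.00206), the C26 effect 1.04 (adjusted p = 0.0623), and the difference 3.29 ± 0.54 (SE, log2; adjusted p = 0.000391). Near Ccnl1, a cyclin of the splicing machinery, the values were 3.18, 1.62, 4.86 and 6.59 scaled tags in the C26 CX libraries, against 1.04, 0.874, 3.16 and 1.75 in the C26 PBS libraries, and in NC26 TUM 0, 0, 0.582 and 1.7, against 3.56, 3.76, 16.5 and 8.07 in NC26 PBS. The difference was 3.28 ± 0.57 (SE, log2; adjusted p = 0.000723), at a level where 2 NC26 TUM libraries held no tag. The Myoz2 region, on the higher side by its difference of 3.34 ± 0.87 (SE, log2; adjusted p = 0.0397), rested on NC26 PBS values of 59.6, 5.27, 43.9 and 3.17, of which replicates 1 and 3 were far above the others, and its call was lost in 10 of the 16 fits without 1 library.

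By position, the higher and lower regions differed. Promoters made up 10.4% of the higher regions, 3.03% of the lower and 12.2% of all tested, and 12.4%, 4.83% and 18.5% lay within 1 kb of a start site. Regions beyond 100 kb of a start were 10.5% of the higher, 23.8% of the lower and 10.4% of all. Median distances were 18431, 33624 and 15044.5 bp. Of tested promoter regions 0.881% had a higher difference and 0.272% a lower one, of intergenic regions 1.27% and 1.60%, of LINE repeats 1.28% and 2.55% and of CpG islands 0.299% and 0.261%. The share of region tags in promoters, a property of each library, was itself highest in C26 CX (above), and with it as a covariate, a fit chosen after the data were seen, 1215 regions were higher and 992 lower. What part it had in the position of the called regions was not tested.

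Markers of other liver cells were present at low levels despite the pull-down of Albumin-Cre nuclei. Macrophage markers had a promoter region for 6 of 23 genes, whose summed tags ranged over 59.7 to 77.4 in C26 CX, 39 to 53.1 in C26 PBS, 33.7 to 60.5 in NC26 TUM and 37.6 to 55.6 in NC26 PBS. Neutrophil markers, with 3 of 18 genes, ranged over 87.8 to 108.6, 57.8 to 72.9, 59.4 to 89 and 55.8 to 63.6 in the same order of groups. Hepatocyte marker promoters, 5 of 6 genes, summed to 884 to 941, 776 to 887, 803 to 970 and 830 to 890. The median sum was highest in C26 CX for these lists, and also for endothelial, cholangiocyte and lymphocyte markers. Endothelial medians were 163, 142, 138 and 132 and cholangiocyte medians 553, 534, 516 and 528, in that order of groups. For stellate markers the median was 196 in C26 CX and highest in NC26 TUM, at 238. The defining markers Cd68, Csf1r, Clec4f, Ptprc, S100a9, Ly6g, Pecam1, Cdh5 and Krt19 had no region at their promoter, and Adgre1 averaged 4.91 scaled tags in C26 CX, 3.04 in C26 PBS, 2.89 in NC26 TUM and 3.01 in NC26 PBS (difference 1.00, adjusted p = 0.519). The macrophage marker C1qa went the other way, at 5.76 in C26 CX, 6.31 in C26 PBS, 4.82 in NC26 TUM and 3.19 in NC26 PBS (difference -0.59, adjusted p = 0.616). Of the cell type lists, macrophage markers had 1 of 68 regions called, neutrophil 1 of 59, endothelial 5 of 209, stellate 2 of 74, cholangiocyte 1 of 123 and lymphocyte 0 of 71. The share called was below the 2.14% of all tested regions for macrophage, neutrophil, cholangiocyte and lymphocyte markers. It was a little above 2.14% for endothelial and stellate markers. The 1 called region of the macrophage list lay 5.85 kb upstream of Fcer1g, an immunoglobulin receptor chain, with 11.1, 13.8, 13.9 and 31.5 scaled tags in the C26 CX libraries, against 4.66, 4.66, 3.16 and 4.38 in the C26 PBS libraries, and in NC26 TUM 2.7, 2.14, 2.91 and 4.54, against 3.56, 4.51, 7.77 and 4.03 in NC26 PBS. C26 CX was above the rest, replicate 4 most of all, and the difference was 2.26 ± 0.41 (SE, log2; adjusted p = 0.00119). Whether cells of these types had a part in the inflammatory regions was not tested, and in such bulk samples more nuclei of a type and more open chromatin per nucleus cannot be told apart.

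The like difference in C57BL/6N mice, 8025 cachexia minus MC38 tumor, shares no library with this one. It was called in 1.7% of tested regions, 1635 higher (0.922%) and 1379 lower (0.778%). In the 1840 higher regions described here its sign was positive in 91.5%, and in the 1947 lower regions negative in 93.4%, against 50.1% and 49.9% of all tested regions with those signs. Beside the medians of 1.54 and -1.59 that come with the choice of the regions, its medians there were 0.72 and -0.85. It was called in the same direction in 317 (17.2% of the higher regions, 19.4% of the 8025 list) and 378 (19.4% and 27.4%), and in the opposite direction in 0 and 1. Serpina3n (2.43), Orm3 (2.43), Osmr (2.92), Kank1 (2.28), Sik1 (1.44) and Per2 (1.42) were called in both strains, as were Fabp1 (-3.24), Hsd3b5 (-3.56), Trim24 (-1.66) and Cebpa (-1.16) on the lower side. Fkbp5 (0.43, adjusted p = 0.877), Mup3 (-1.14, 0.138), Mat1a (0.40, 0.152) and Ddit4 (0.87, 0.158) did not pass there. By list, 53 acute phase, 29 glucocorticoid and 44 amino acid regions were higher and 40 growth hormone regions lower here, against 51, 16, 11 and 22 in that pair. That pair held 15 libraries against 16 here, and all 8025 libraries were of the higher library series, so the counts are not like for like. Whether the pairs differ at these genes was not tested.

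**Figure D5:**
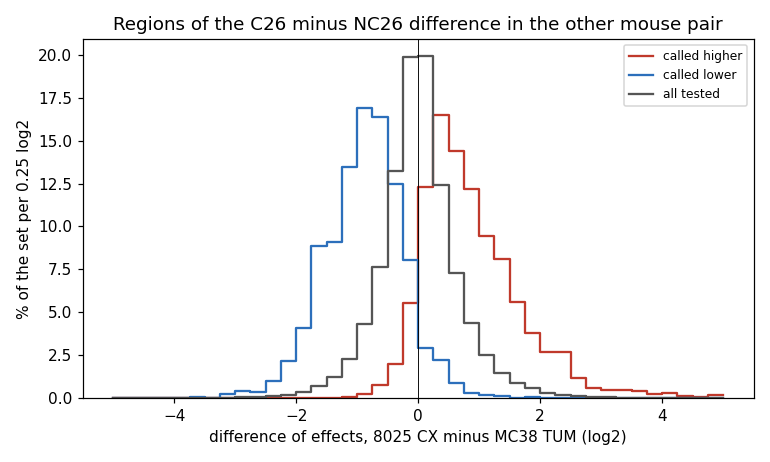
Distribution of the 8025 minus MC38 difference of effects (x axis, log2) as the percent of each set per bin (y axis) for regions called higher (red) and lower (blue) in the C26 minus NC26 difference and for all tested regions (grey). The medians are 0.72, -0.85 and 0.00.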

How the data were processed

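ATAC-seq was made from about 25000 hepatocyte nuclei per animal, with 12 PCR cycles and paired-end reads on an Illumina HiSeq, per the labels' protocols. BWA 0.7.5a-r405, SAMtools, HOMER and mm10 are named in the submitters' processing notes. The authors deposited 1 signal table: per the file headers, HOMER tags in 400 bp regions merged over the libraries, scaled to 10 M tags per library. All 6226640 values came out as whole read ends within 0.05 tag (100%), each 0.5 tag, so the table holds recoverable counts, and edgeR on these called 1189 higher and 1549 lower regions. Because the deposited values are normalized, the main test was limma 3.58.1 (R 4.3.3) with its trend and robust options on log2(scaled tags + 1), a scale that understates the change of regions with few tags. TMM scaling and filterByExpr (minimum 10, total 15) came from edgeR 4.0.16. The fit held all 9 groups of 35 libraries, which share 1 spread per region, and a term for library series. Benjamini-Hochberg adjusted p under 0.05 over 177251 regions was the call. P-values measure the spread between animals.

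Regions were tied to the nearest start site of the deposited annotation, and to a list within 100 kb. The groups, members, gene lists and tests were chosen with earlier results of these data known. The 104 named regions are the 12 largest differences per direction at or above median signal (1 per gene), 5 preset promoters, the 3 genes of lowest adjusted p per list, and the 4 largest per direction of regions called in both cohorts or for the NC26 effect and the difference together. Printed promoters are the 6 higher and 3 lower called promoters of list genes with the largest difference among eligible windows. Such windows overlapped a tested region by 200 bases or more and bore the symbol of its nearest gene, with a single chromosome left out. In simulated data, 100 regions of at least median signal had a 2-fold and 100 a 4-fold difference. Of these, 5% and 74% were recovered, with 13 false calls beside them, in 175425 regions. Most 2-fold differences were thus missed in that setting with 4 libraries per group. The simulated spread was fixed and few regions were changed, which makes the adjusted threshold stricter, so these shares need not hold for the real data.

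Alternatives were DESeq2 1.42.0 size factors and test, library totals, no filter, pseudocounts of 0.5 and 5, array weights, no series term, fewer groups, 1 series of NC26, a replicate block, direct contrasts and leaving out each library. The main fit did not pair samples by replicate number. Analysis used Python 3.11.15, pandas 2.3.3, numpy 2.4.6 and scipy 1.17.1.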

Additional observations from a re-analysis of the deposited data

Results flagged for a closer look

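The difference of effects between the cohorts, C26 minus NC26, was called in 1840 regions on the higher side and 1947 on the lower, as described above. Within groups of 4 libraries, 16 of 428 checks found 1 library far from the other 3, and chance alone gives about 1 in 20 such groups. In C26 CX, these were replicate 1 at the Nr1d2 promoter (369 scaled tags, the others 399 to 404), replicate 2 at Gstp1 (19.8, the others 7.32 to 7.98), replicate 3 at Cyp51 (9.72, the others 5.49 to 5.66) and replicate 4 at Fcer1g (31.5, the others 11.1 to 13.9). In C26 PBS, replicate 1 stood high at Mt2 0.844 kb upstream of the start (15.5, the others 4.82 to 6.31) and at Gadd45b (87.5, the others 53.9 to 56.5). C26 PBS replicate 4 stood low at Olfr173 (34.2, the others 41.4 to 42) and Per2 (11.4, the others 14 to 14.5) and high at Afdn (19.3, the others 7.58 to 8.21). Replicate 3 of C26 PBS had a promoter share of 33.5%, the others 34.5% to 34.7%. In NC26 TUM, replicate 4 was low at Saa1 (5.67, the others 10.8 to 11.2) and Thrsp (22.7, the others 45.4 to 48.6), and replicate 3 was high at Rasgrp3 (80.02, the others 37.8 to 41.8). In NC26 PBS, replicate 1 was low at Nolc1 (16, the others 25.6 to 26.5) and high at Got1 (131, the others 101 to 106), and replicate 3 was high at Sox9 (7.32, the others 2.30 to 2.67). The call of the difference was lost without the library that stood apart at Saa1 and Sox9, but not at the upstream Mt2 region, Gadd45b, Olfr173, Rasgrp3, Nolc1, Per2, Fcer1g, Gstp1, Cyp51, Got1 or Thrsp. At the Nr1d2 promoter the difference was not called.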

How the results depend on the processing

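Refits of named regions kept the side of the threshold in 2891 cases, lost the call in 325 and reversed the sign in 0, a sign that the choice of called regions largely fixes. Over the alternatives, the higher count was 19 to 73 for acute phase proteins, 6 to 25 for the interleukin-6 list, 7 to 49 for glucocorticoid targets and 14 to 55 for amino acid catabolism, and the lower count 11 to 45 for the growth hormone list, each lowest with the higher NC26 library series alone. For the difference of effects, the 1840 higher and 1947 lower calls became 755 and 967 with scaling to library totals, 1215 and 992 with the promoter share as a covariate (chosen after seeing the data), 410 and 468 with the higher NC26 library series alone, 810 lower with the lower series alone, 8472 and 6498 for C26 CX minus NC26 TUM without the PBS groups, 1189 higher with edgeR, and 973 to 2301 and 1095 to 2362 when 1 library was left out. For the C26 effect the lower count was 7763 with library totals, and leaving out 1 library gave 9645 to 10883 higher and 9341 to 11689 lower. For the NC26 effect the lower count was 18 with library totals, 30 with only the groups compared and 717 with the lower library series. Both counts were 141 and 14 with array weights, 47 and 5 with the higher library series, 1113 and 1395 against both PBS groups pooled, 136 and 9 with edgeR, and 73 to 584 and 7 to 600 without 1 library. C26 PBS against NC26 PBS gave 1 higher region with only the groups compared, and 4 higher and 1 lower with DESeq2. For 8025 minus MC38 the lower count was 703 with library totals, the higher count 2922 with a pseudocount of 5, and both counts 2581 and 2178 with array weights and 2973 and 2996 with DESeq2. The promoter share difference was 0.94 to 1.37 points (exact permutation p = 0.0143 to 0.0878) and the in-region share difference -4.82 to 1.62, positive without C26 PBS replicate 2 (1.62), NC26 PBS replicate 3 (0.134), NC26 TUM replicate 3 (1.02) or NC26 TUM replicate 4 (0.098). Within cohorts, same-numbered samples correlated at -0.06 to 0.08 in their deviations, and other-numbered samples at -0.10 to 0.10. These few correlations cannot decide whether same-numbered samples were handled together. With a replicate block 1673 higher and 1833 lower regions were called. Why the counts moved was not tested, and the fits by series and without 1 library also held fewer samples. Regions with few tags are limited by depth, most in NC26 TUM replicate 1 at 3.47 M tags.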
